A study of Mus musculus with 6 samples.

Results

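The genes described here form the transcription factor and feedback arm of the PERK branch of the unfolded protein response. They are Eif2ak3, which encodes the kinase PERK, the factor genes Atf4, Ddit3, Atf3, Atf5, Cebpb and Cebpg, and the feedback genes Trib3, Ppp1r15a and Nupr1. They were chosen by gene symbol, without the metabolic targets of the branch and with earlier results of these data known. They make up 10 of the 19936 genes tested. Each was read by 1 probe set whose annotation names that gene alone, and no other probe set names any of them.

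Transcripts were measured on Affymetrix arrays in colon epithelium of male mice aged 8 weeks, with 3 arrays from enterocyte-specific Sel1L knockout mice (Sel1L-delta-IEC) and 3 from wild type C57BL/6J mice. In the knockout, loxP sites around exon 6 of a Sel1ltm1e(KOMP)Wtsi allele, from which an FLPe deleter strain had removed the lacZ-neo cassette, were recombined by Cre under the villin 1 promoter (B6.SJL-Tg(Vil-cre)997Gum/J, backcrossed to C57BL/6J), so the deletion is limited to cells that use this promoter. The labels do not say whether the wild type mice carried a floxed allele or the Cre transgene, nor do they tie each array to its own animal, and the p-values then cover only the spread among these arrays, which may be technical. Levels are RMA log2 values, where a difference of 1 is a doubling, and they are compared between genotypes for a gene and not between genes. In extracts of the whole epithelium, fewer cells of a type and less RNA per cell cannot be told apart.

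SEL1L holds the ubiquitin ligase HRD1 in the machinery that removes misfolded proteins from the endoplasmic reticulum (ER). PERK, a kinase in the ER membrane, phosphorylates the translation initiation factor eIF2α when unfolded proteins build up, which slows protein synthesis while favouring translation of a few mRNAs with upstream reading frames, among them those of Atf4, Atf5, Ddit3 and Ppp1r15a. ATF4 then activates genes for amino acid supply together with further factors such as CHOP, the product of Ddit3, and the response is closed by feedback proteins, including the phosphatase subunit GADD34. Only RNA was measured here, so neither eIF2α phosphorylation nor translation of these mRNAs can be read from the arrays.

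Sel1l read 8.70, 9.06 and 8.66 in the knockout arrays, against 9.45, 9.67 and 9.54 in the wild type arrays, a change of -0.74 ± 0.11 (SE, limma adjusted p = 0.018). That call ended without wild type array 1 or 2 or knockout array 1 or 3, with an adjusted p of up to 0.087. All 14 colon epithelium markers represented, among them Epcam, Krt8 and Vil1, lay above the array median in every array, against 3 of 15 leukocyte, 2 of 8 plasma cell and 4 of 15 stromal, vessel, muscle and nerve markers. The called genes in these lists were Aqp8 (-0.80 ± 0.14) and Ly6g (-1.09 ± 0.15), which fell in the knockout, and Derl3, which rose and also belongs to ER-associated degradation. In the stromal list no gene had an unadjusted p under 0.05, and Dcn (-0.50 ± 0.26) and Tagln (0.16 ± 0.089) had the smallest p. The calls of Aqp8 and Ly6g ended without wild type array 1 or 2 or knockout array 1 or 2 (adjusted p up to 0.13 and 0.064), and Dcn was called without wild type array 2 (adjusted p = 0.037). Ly6g was by far the brightest leukocyte marker (mean 10.84 in the knockout and 11.93 in wild type). Whether its probe set reads leukocytes here was not tested. Of all 15 leukocyte markers, 9 had positive and 6 negative differences. Over all genes, 11399 of 19936 differences were positive. Without Ly6g the summed linear level of the leukocyte markers was 605 to 684 in the knockout arrays and 609 to 675 in the wild type arrays. Without Derl3 that of the plasma cell markers was 1354 to 1414 in the knockout and 1461 to 1481 in wild type. This sum followed mainly Sdc1, by far its brightest gene (mean 10.10 in the knockout and 10.20 in wild type, limma adjusted p = 0.52). Of all 8 plasma cell markers, 4 had positive and 4 negative differences. The summed level of the stromal list was 913 to 1000 in the knockout and 905 to 994 in wild type. Without Aqp8 the epithelial markers summed to 64902 to 68560 in the knockout and 66578 to 73118 in wild type. Of the 14 epithelial markers, 6 had each knockout array below each wild type array, namely Epcam (-0.23 ± 0.058), Cdh1 (-0.23 ± 0.058), Slc26a3 (-0.36 ± 0.10), Car4 (-0.52 ± 0.10, adjusted p = 0.051), Muc2 (-0.04 ± 0.055) and Aqp8, against 7.98% of all genes. Cdx2 (0.28 ± 0.088) had each knockout array above each wild type array, against 11.4% of all genes, and 6 of the 14 markers had positive differences. In this list 6 genes had an unadjusted p under 0.05, against 13.3% of all genes, namely Epcam, Cdh1, Slc26a3, Car4, Aqp8 and Cdx2. The part of these marker differences in the results below was not tested.

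Of the 10 genes, 5 rose in the knockout and none fell. Nupr1, Trib3, Atf5, Ddit3 and Atf4 were called at an adjusted p under 0.05, where limma called 1.63% of all genes and 0.918% as higher in the knockout. The other 5, Atf3, Eif2ak3, Ppp1r15a, Cebpg and Cebpb, did not pass, and all 5 had positive differences. The median difference over the 10 genes was 0.47, against 0.019 over all genes tested, where 11399 of 19936 differences were positive. In 9 of the 10 genes each knockout array lay above each wild type array, which held for 11.4% of all genes, and Ppp1r15a was the exception. Without knockout array 1 the number of calls among the 10 was 3, with Trib3 and Atf4 lost, and it was 4 or 5 with any other array left out. Trib3 was called in only 1 of the 6 fits that left out an array, that without wild type array 3. Without wild type array 2, Atf3 was called and Trib3 was not. Without moderation, 0 of the 10 were called.

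**Figure D1:**
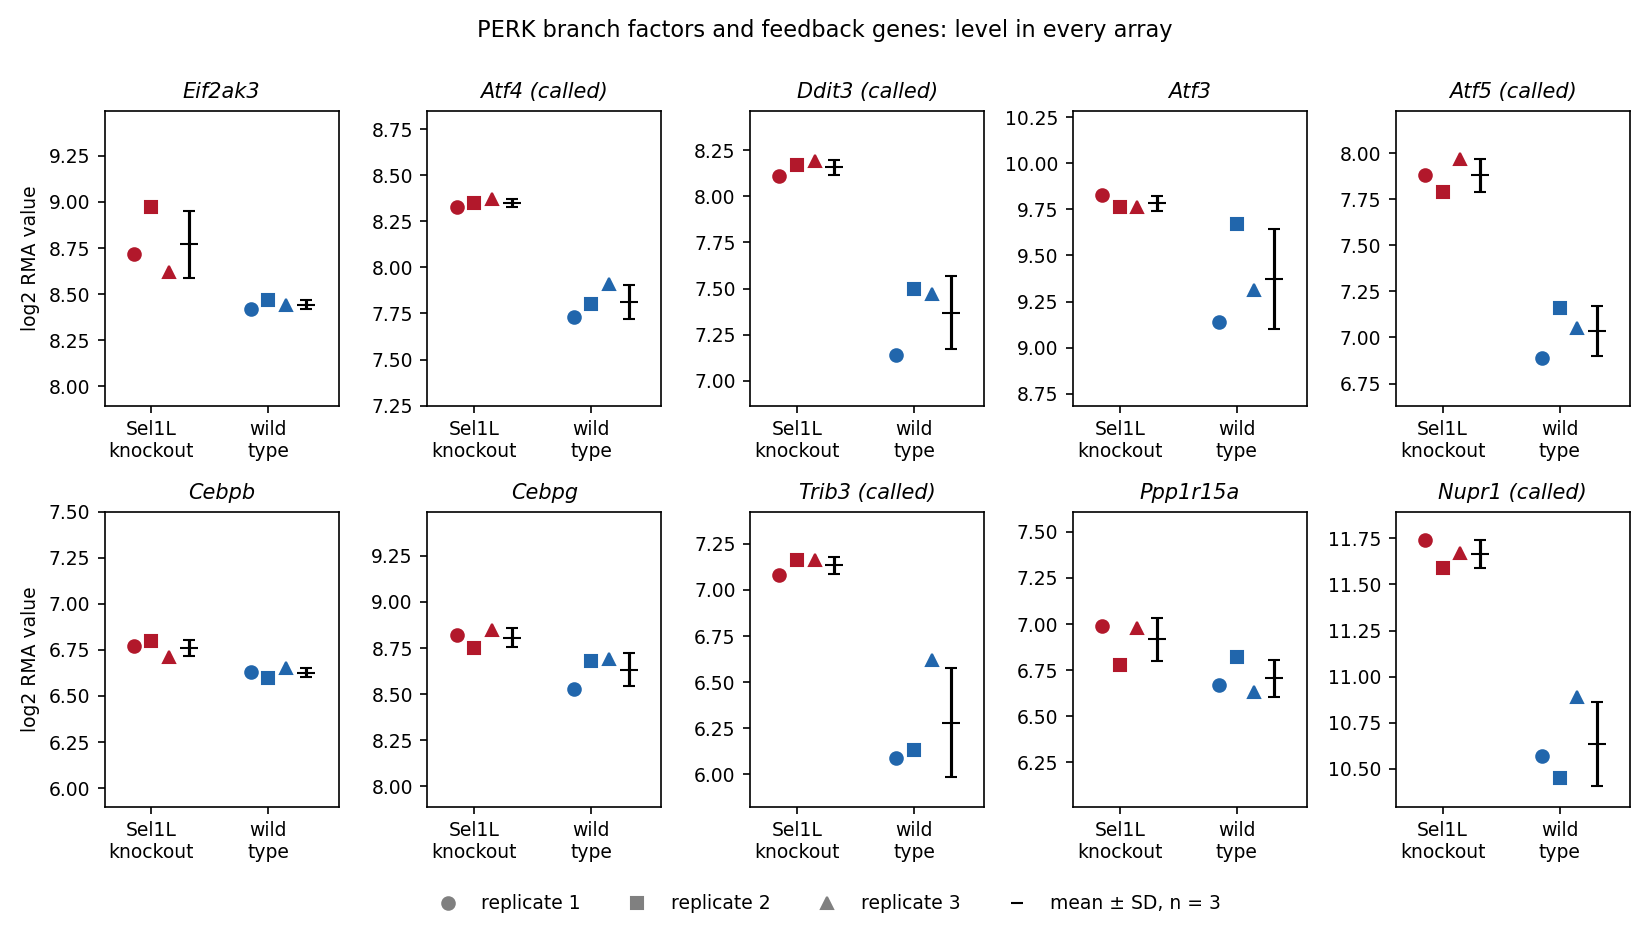
RMA log2 level of each of the 10 genes in the 3 Sel1L knockout arrays (red) and the 3 wild type arrays (blue), with marker shapes for the replicate numbers and black bars for the mean ± SD (n = 3); every panel spans the same number of log2 units. The 5 called genes show a gap between the genotypes of 0.42 to 0.70, and the Ppp1r15a panel alone shows an overlap.

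Eif2ak3, the gene of the kinase itself, read 8.72, 8.97 and 8.62 in the knockout arrays, against 8.42, 8.47 and 8.44 in the wild type arrays. The groups did not overlap, and the knockout arrays were spread more widely, with an SD of 0.18 against 0.026 in wild type. The difference was 0.33 ± 0.091 (SE), or 1.25-fold with a 95% interval of 1.08 to 1.45, and was not called (adjusted p = 0.15). Its size rested partly on knockout array 2, without which it was 0.22. The genes of the 3 other eIF2α kinases were not called either. Eif2ak1, which encodes the heme-regulated kinase HRI, differed by -0.029 ± 0.060 (adjusted p = 0.89), and Eif2ak4, which encodes the amino acid sensor GCN2, by -0.015 ± 0.066 (adjusted p = 0.95). Eif2ak2, which encodes the interferon-induced double-stranded RNA sensor PKR, read 8.82, 8.86 and 8.82 in the knockout arrays and 9.13, 9.11 and 9.30 in the wild type arrays. Its groups did not overlap, with a difference of -0.35 ± 0.070 (adjusted p = 0.056), and it was called without the dimmest 50% of genes (adjusted p = 0.020) or with a prior that follows intensity (adjusted p = 0.018).

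Atf4, the factor whose translation the branch induces, read 8.33, 8.35 and 8.37 in the knockout arrays, against 7.73, 7.80 and 7.91 in the wild type arrays. The knockout arrays were nearly equal and all lay above the highest wild type array, by at least 0.42. Atf4 rose by 0.54 ± 0.066, or 1.45-fold (95% interval 1.31 to 1.61, adjusted p = 0.0099). The adjusted p was 0.052 without knockout array 1.

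Atf5, a paralog of Atf4 that is translated under the same control and has a part in the mitochondrial stress response, read 7.88, 7.79 and 7.97 in the knockout arrays and 6.89, 7.16 and 7.05 in the wild type arrays. The gap between the groups was 0.63, wider than the range within either group. It rose by 0.84 ± 0.084, or 1.80-fold (95% interval 1.57 to 2.05, adjusted p = 0.0064), and stayed called with each array left out, with an adjusted p of up to 0.039.

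Ddit3 encodes CHOP, a C/EBP family factor that dimerises with other C/EBP proteins and is known for its role in death under lasting ER stress. It read 8.11, 8.17 and 8.19 in the knockout arrays, against 7.14, 7.50 and 7.47 in the wild type arrays, where array 1 was the lowest. Ddit3 rose by 0.79 ± 0.098, or 1.72-fold (95% interval 1.48 to 2.01, adjusted p = 0.010). The rise was 0.67 without wild type array 1, and the adjusted p reached 0.049 without knockout array 1.

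Atf3, a stress-induced bZIP factor that mostly represses transcription, read 9.83, 9.76 and 9.76 in the knockout arrays and 9.14, 9.67 and 9.31 in the wild type arrays. The knockout arrays lay close together, and wild type array 2 came within 0.08 of them. The difference of 0.41 ± 0.12, or 1.33-fold (95% interval 1.09 to 1.61), was not called (adjusted p = 0.18). Without wild type array 2 it was 0.56 and was called (adjusted p = 0.042). Among 20 immediate early genes outside the bZIP family, that array was the highest wild type array in 8, array 3 in 9 and array 1 in 3. Over all genes wild type array 2 was the highest in 5553 of 19936. Among the AP-1 genes, Fos, Fosb, Jun, Junb and Jund were also highest in that array, while Fosl1 and Fosl2 were not.

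Cebpb and Cebpg, the C/EBP partners with which ATF4 and CHOP form dimers, showed the smallest differences of the 10 genes along with Ppp1r15a. Cebpg read 8.82, 8.75 and 8.85 in the knockout arrays and 8.53, 8.68 and 8.69 in the wild type arrays, a difference of 0.18 ± 0.068 (adjusted p = 0.31). Cebpb read 6.77, 6.80 and 6.71 in the knockout arrays and 6.63, 6.60 and 6.65 in the wild type arrays, a difference of 0.13 ± 0.057 (adjusted p = 0.38). The groups did not overlap in either gene, but the gap was only 0.06 in each. The 95% intervals reach up to 1.26-fold for Cebpg and 1.20-fold for Cebpb. Both lie below the lower bounds of Ddit3, Atf5, Nupr1 and Trib3, at 1.48-, 1.57-, 1.71- and 1.47-fold, though no test of the difference between genes was run. Cebpa and Cebpd, taken as C/EBP counterparts, differed by -0.00066 ± 0.065 and -0.0064 ± 0.15 (adjusted p = 1 and 0.99).

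Nupr1 encodes a small stress-induced nuclear protein that takes part in transcription, and its gene is known as an ATF4 target. It read 11.74, 11.59 and 11.67 in the knockout arrays, against 10.57, 10.45 and 10.89 in the wild type arrays. The gap of 0.70 was the widest of the 10 genes. Nupr1 rose by 1.03 ± 0.11, or 2.04-fold (95% interval 1.71 to 2.43, adjusted p = 0.0065), and ranked 24th among all rises by size and 35th among all genes by p. It stayed called with each array left out, with an adjusted p of up to 0.039.

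Trib3, a pseudokinase that binds ATF4 and CHOP and dampens their activity, read 7.08, 7.16 and 7.16 in the knockout arrays and 6.09, 6.13 and 6.62 in the wild type arrays. Wild type array 3 stood apart above the other wild type arrays and was still 0.46 below the lowest knockout array. Trib3 rose by 0.85 ± 0.13, or 1.81-fold (95% interval 1.47 to 2.22, adjusted p = 0.019). This call was the least stable of the 5. Without wild type array 3 the rise was 1.02 (adjusted p = 0.0016), while without wild type array 1 or 2 or any knockout array the adjusted p was 0.070 to 0.079. Its relatives Trib1 and Trib2 were not called, with differences of 0.20 ± 0.12 (adjusted p = 0.53) and 0.14 ± 0.056 (adjusted p = 0.33).

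Ppp1r15a encodes GADD34, the inducible subunit that directs protein phosphatase 1 to eIF2α. It read 6.99, 6.78 and 6.98 in the knockout arrays and 6.67, 6.82 and 6.63 in the wild type arrays, so knockout array 2 lay below wild type array 2. The difference of 0.21 ± 0.083, or 1.16-fold (95% interval 1.01 to 1.32), was not called (adjusted p = 0.32). Ppp1r15b, which encodes the constitutive counterpart CReP, differed by 0.067 ± 0.063 (adjusted p = 0.72). Dnajc3, which encodes p58IPK, an ER cochaperone also described as an inhibitor of PERK, rose by 0.63 ± 0.065 (adjusted p = 0.0064) and was called in all 6 fits that left out an array. In the exact two-sided permutation test of the level, p was 0.2 for Ppp1r15a and 0.1 for the 9 genes without overlap, the smallest value that 3 arrays against 3 can give.

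**Figure D2:**
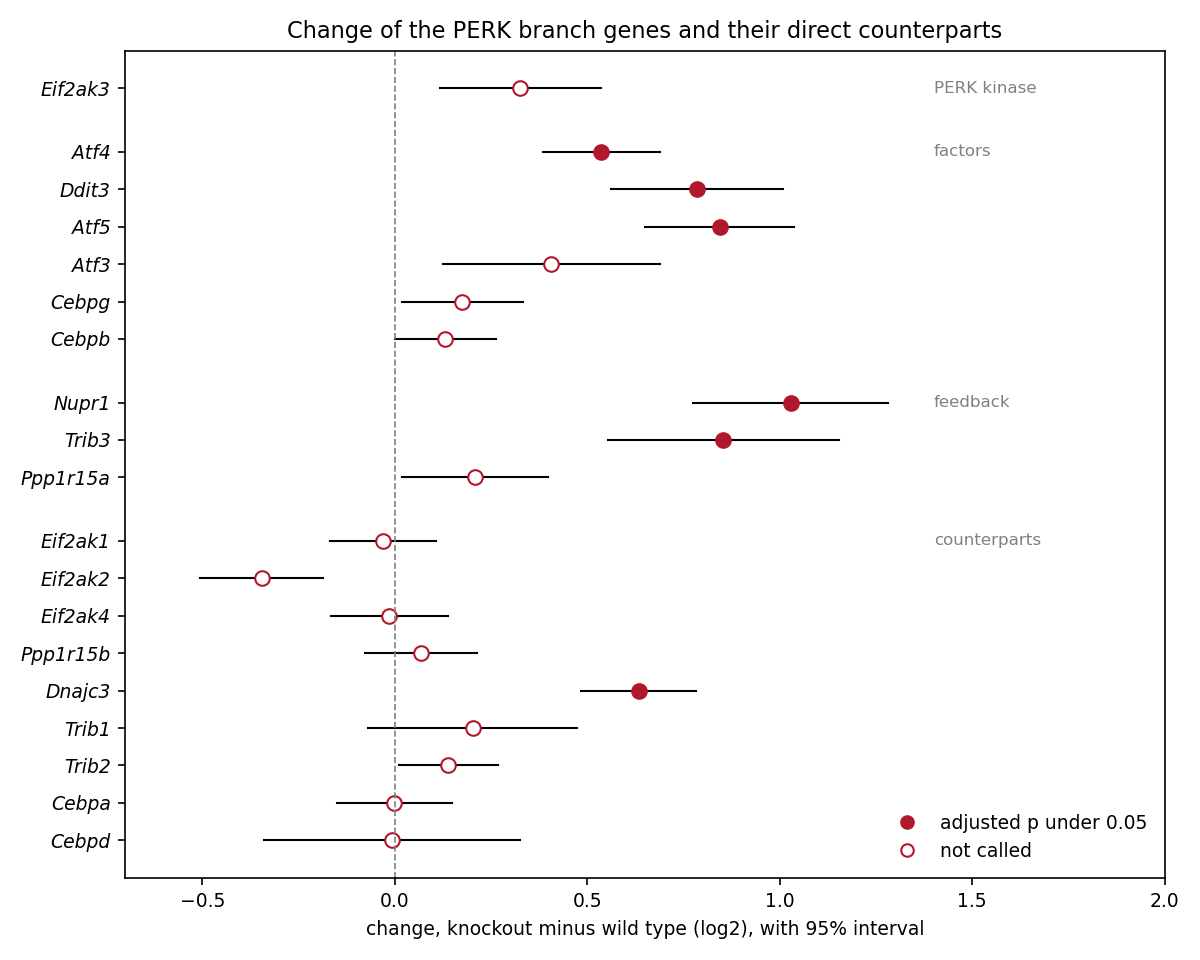
Change between knockout and wild type on the log2 scale (x axis) with limma's 95% interval for the 10 genes by role and for 9 counterparts; filled circles mark an adjusted p under 0.05. Nupr1, Trib3, Atf5 and Ddit3 lie between 0.79 and 1.03, Cebpb, Cebpg and Ppp1r15a between 0.13 and 0.21, and Dnajc3 is the only filled counterpart.

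**Figure D3:**
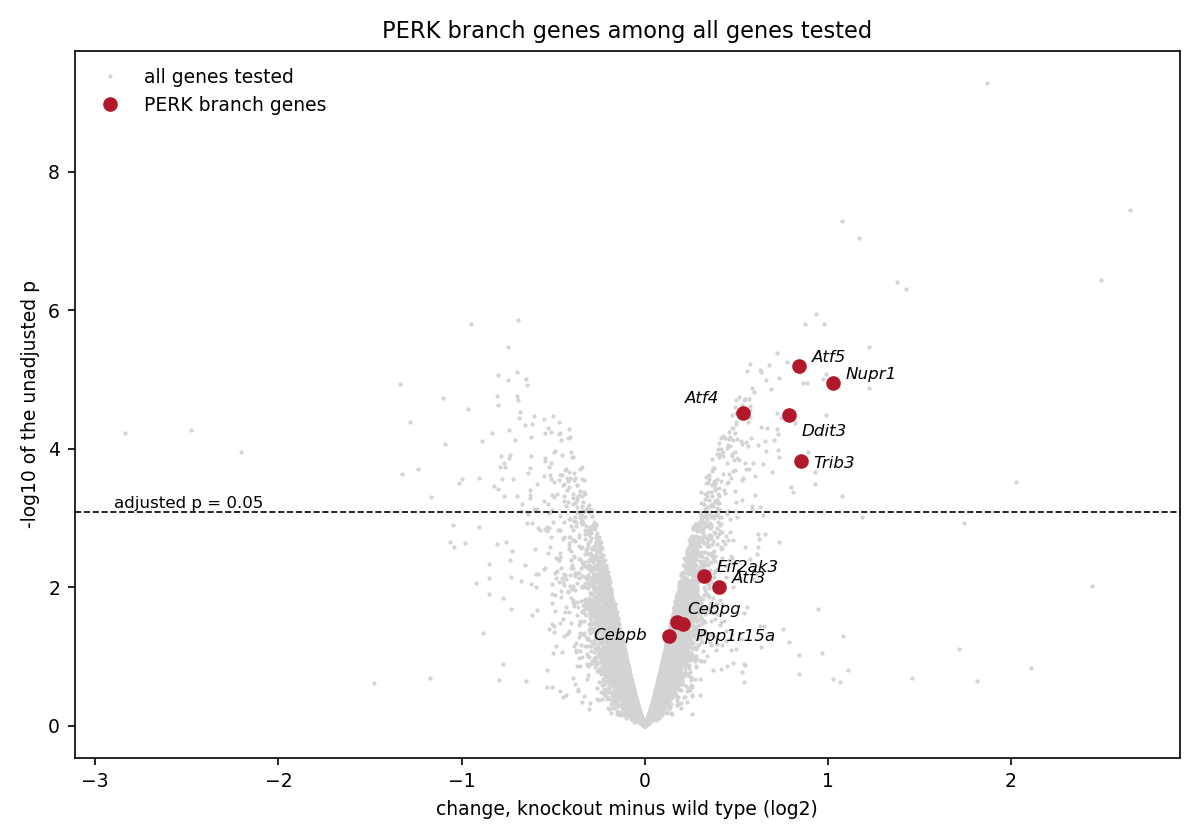
Change between knockout and wild type (x axis, log2) against the negative log10 of the unadjusted p (y axis) for all 19936 genes (grey) and the 10 PERK branch genes (red). The dashed line marks an adjusted p of 0.05, with 5 of the 10 genes above it and all 10 on the side of higher levels in the knockout.

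Within the genotypes, the wild type arrays had the larger median SD for these genes. The median SD over the 10 genes was 0.049 in the knockout and 0.12 in wild type. Over all genes tested it was 0.084 in the knockout and 0.082 in wild type. The wild type SD was the larger in 7 of 10, against 9720 of all 19936 genes, and each SD comes from only 3 arrays. Averaged over the 10 genes, deviations from the wild type mean were 0.53, 0.52 and 0.54 in the knockout arrays and -0.11, 0.037 and 0.073 in the wild type arrays. For the 5 called genes these means were 0.80, 0.79 and 0.84 in the knockout and -0.14, -0.019 and 0.16 in wild type. Wild type array 1 was the lowest of its group in 7 genes. Arrays 2 and 3 were each the highest in 5 genes, array 2 in Eif2ak3, Ddit3, Atf3, Atf5 and Ppp1r15a and array 3 in Atf4, Cebpb, Cebpg, Trib3 and Nupr1. Array 3 was also the highest wild type array in 29 of 35 metabolic and translational targets of ATF4 and CHOP, against 7377 of all 19936 genes.

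**Figure D4:**
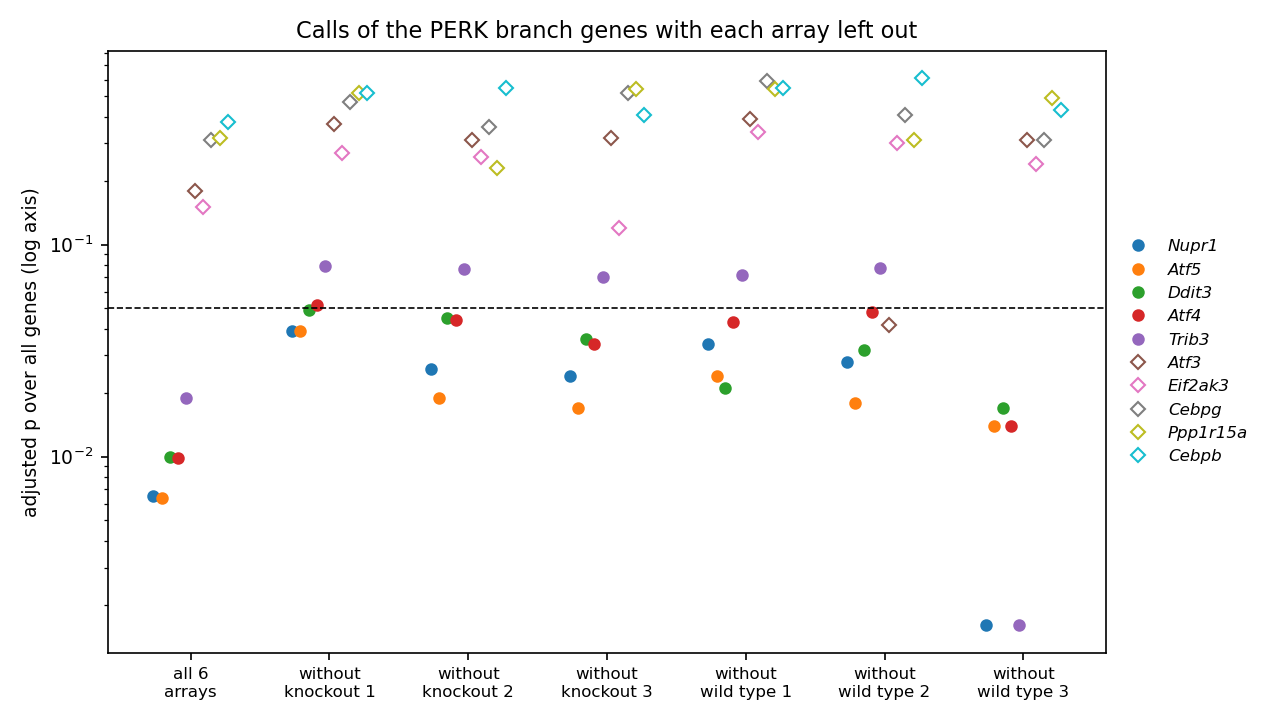
Adjusted p over all genes (y axis, log scale) for the 10 genes with all 6 arrays and with each array left out; filled circles are the 5 genes called with all arrays and the dashed line marks 0.05. Nupr1, Atf5 and Ddit3 stay below the line throughout, Trib3 falls below it only with all arrays or without wild type array 3, and Atf3 only without wild type array 2.

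Other genes of the pathway were taken from textbook lists, chosen with earlier results of these data known. Over all genes limma called 1.63%, and 0.918% as higher in the knockout, the shares to set beside the calls in these lists. Of the 35 measured metabolic and translational targets of ATF4 and CHOP, 16 were called higher and none lower, with a median of 0.48. All 35 targets had positive differences, against 11399 of all 19936 genes. In 32 each knockout array lay above each wild type array, against 11.4% of all genes. By the smallest p they were led by Aldh1l2, a mitochondrial folate enzyme (2.65 ± 0.14, adjusted p = 3.4e-04), Pck2, the mitochondrial PEP carboxykinase (1.38 ± 0.097, adjusted p = 0.0013), and Psat1 of serine synthesis (1.22 ± 0.11, adjusted p = 0.0049). The count of calls was 22 without wild type array 3, 8 without wild type array 1 or knockout array 2 or 3, and 7 without wild type array 2 or knockout array 1. It was 25 without the dimmest 50% of genes and 24 with a prior that follows intensity. By comparison, 1 of 18 genes of eIF2 kinases, phosphatase subunits, eIF2 and eIF2B was called, Dnajc3, with a median of 0.051. Dnajc3 is also counted among the called chaperone and degradation genes that follow. Of 20 chaperone and degradation genes driven by XBP1s and ATF6, 15 were called higher and all 20 had positive differences, with a median of 0.70. The smallest p were those of Sdf2l1 (1.17 ± 0.069), Derl3 (2.49 ± 0.17) and Pdia6 (0.94 ± 0.075).

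Among 9 death genes placed downstream of CHOP, none was called by limma, 2 had an unadjusted p under 0.05, against 13.3% of all genes, and the median was -0.043. The list mixes genes of unlike roles, among them Ero1a, which is also counted with the metabolic targets, so its median does not measure a death response. Casp12 (mean 3.77 in the knockout and 3.83 in wild type) and Car6 (4.07 and 4.02) lay well below the array medians. The median changed sign without wild type array 1 or 3 or knockout array 1 or 2, where it was 0.018, 0.0022, 0.015 and 0.013. Ero1a, an ER oxidase and CHOP target, differed by 0.50 ± 0.10 (adjusted p = 0.055) and was called without wild type array 3 (adjusted p = 0.018), without the dimmest 50% of genes (0.024), with a prior that follows intensity (0.017) and, at the threshold, with array weights (0.050). Pmaip1, which encodes the BH3-only protein NOXA, differed by -0.17 ± 0.062 (adjusted p = 0.29).

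Among 17 other C/EBP, ATF and Tribbles genes, Atf6 was the only call (0.46 ± 0.061, adjusted p = 0.012), with a median of 0.070, and it was lost without wild type array 1 or 2 or knockout array 1 or 2 (adjusted p up to 0.063). None of 20 bZIP partners and AP-1 genes was called by limma, and 4 had an unadjusted p under 0.05, against 13.3% of all genes, with Nfil3 (0.28 ± 0.087, adjusted p = 0.20) and Nfe2l1 (0.16 ± 0.057, adjusted p = 0.27) at the smallest p. Of 20 immediate early genes outside the bZIP family, Nr4a1 (0.71 ± 0.098, adjusted p = 0.013) and Nr4a2 (0.37 ± 0.067, adjusted p = 0.036) rose, with a median of 0.079. Both calls ended without wild type array 1 or 2 or knockout array 1 or 2, with adjusted p up to 0.061 for Nr4a1 and 0.14 for Nr4a2. That of Nr4a2 also ended without knockout array 3 and under median centring (adjusted p = 0.058). The list held 4 calls without the dimmest 50% of genes or with a prior that follows intensity. The part of these stress-induced genes in the levels of Atf3, Cebpb and Ppp1r15a was not tested.

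The genes whose pattern over the 6 arrays was most like that of Atf4 were named by the root mean square difference of log2 values after centring each gene on its own mean. They were Cope, a coatomer subunit (0.028), Sec61b of the ER translocon (0.039), Sars, the cytosolic seryl-tRNA synthetase (0.050), Creb3, an ER membrane bZIP factor (0.051), and Hs3st3b1, a heparan sulfate sulfotransferase (0.051). The nearest of the other 9 PERK branch genes was Ddit3, at 0.149 and rank 323 among all other genes. For Ddit3 they were Slc35b1, a nucleotide transporter of the ER (0.067), Manf, a secreted ER stress protein (0.077), Atf5 (0.079), Hsp90b1, which encodes the chaperone GRP94 (0.099), and Serp1, a translocon-associated protein (0.102). Atf5 thus ranked 3rd for Ddit3, and Atf4 ranked 32nd, at 0.149. Likeness of this kind reflects the size of the genotype difference as well as the order of the arrays.

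Promoter windows of all 10 genes, 250 bases before to 50 after the annotated start, were taken from RefSeq (GRCm38.p6), with a second window for Atf5. They were searched on both strands for TGATGNAA, the core of the C/EBP-ATF response element that ATF4 binds with C/EBP partners, and for TGACGTCA, the full cAMP response element, and its TGACG piece, which every full element also holds. TGATGNAA was in 3 of the 10 genes, against 3.62% of the 15614 tested genes with a window. It was in 8.97% of the 156 genes called higher, which include Nupr1 and Trib3, and in 1.77% of the 113 called lower. The 3 genes were Nupr1 and Atf3, where the match covers positions -110 to -103 in both, and Trib3, where it covers positions 15 to 22 after the start. The matched stretches are shown on the strand of the gene with the match in capitals, read there on the opposite strand, because they are the only windows of the 10 genes with this core.
Nupr1: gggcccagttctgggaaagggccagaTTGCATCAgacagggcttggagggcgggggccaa
Atf3: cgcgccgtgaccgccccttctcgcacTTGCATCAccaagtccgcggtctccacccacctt
Trib3: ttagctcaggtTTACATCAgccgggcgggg
These lie at chr7:126625547-126625606, chr1:191183410-191183469 and chr2:152344028-152344057, all on the minus strand.

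The full element TGACGTCA was in the window of Ppp1r15a alone, at positions -12 to -5, against 2.72% of the tested genes, 3.21% of those called higher and 3.54% of those called lower. It is shown in capitals within the last 60 bases before the start (chr7:45526269-45526328, minus strand).
Ppp1r15a: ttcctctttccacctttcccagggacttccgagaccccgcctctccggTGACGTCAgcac
The TGACG piece was in 5 of the 10 genes, Atf4, Atf3, Cebpb, Trib3 and Ppp1r15a, against 28% of the tested genes, 44.9% of those called higher and 23.9% of those called lower. The windows of Ddit3, Atf5, Eif2ak3 and Cebpg held none of these letters. The 5 called genes thus include 2 with TGATGNAA and 2, Ddit3 and Atf5, with no match of either kind within these windows. Sequence outside the windows was not searched, so a missing match does not show that a gene lacks the element. A match is a description of the letters and was not tested as a binding site.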

How the data were processed

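The authors deposited RMA values on a log2 scale. RMA is named by the submitters' processing notes, removes background, brings arrays to a common distribution and sums up the probes of a set. The range of the values gave the log2 scale, while software version and build were not given in the sources used here. Array medians ran from 6.317 to 6.359, and the values were used as they are. Each gene was represented by its brightest probe set annotated to it alone, with symbols updated through RefSeq.

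limma 3.58.1 in R 4.3.3 tested knockout against wild type (genotype only, two-sided, Benjamini-Hochberg over 19936 genes, called under 0.05). Changes are knockout minus wild type with the moderated SE. The fit was tested on simulated data. Tables and plots used Python 3.11.15, pandas 2.3.3 and matplotlib 3.10.9. With 3 arrays a group, their number limits the precision. Batches were not analysed here.

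The 10 genes and the 14 lists were chosen with earlier results of these data known. Beside the 10 genes and Sel1l, the naming rule took direct counterparts (Eif2s1 among them has no single-gene probe set), up to 3 called genes with the smallest p from each list, 2 with the smallest p from a list with no call, and the 5 genes most like Atf4 and Ddit3 over the arrays. Epcam, Krt8, Vil1, Cdh1, Slc26a3, Car4, Muc2, Cdx2 and Sdc1 were named outside it, after their values were seen. So were Fos, Fosb, Fosl1, Fosl2, Jun, Junb, Jund, Casp12 and Car6. Lists are given by counts and medians, with no list test. Alternatives were median centring, quantile normalization, a replicate block, array weights, a robust prior or one that follows intensity, no moderation, averaging a gene's probe sets, leaving out the dimmest 50% of genes, and leaving out each array.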

Additional observations from a re-analysis of the deposited data

How the results depend on the processing

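All 150 differences of the 10 genes computed under the 15 alternatives were positive. The number of the 10 genes called was 5 with all arrays, 3 to 5 with an array left out, and 0 without moderation, where 8 of them and 2392 of all genes had an unadjusted p under 0.05 and the adjusted p of the 5 genes was 0.10 to 0.21. The count over all genes was 325, and it was 598 without the dimmest 50% of genes, 614 with an intensity trend in the prior, 4 without moderation, and 69 to 303 with an array left out (96 and 95 without wild type arrays 1 and 2, 69, 120 and 187 without knockout arrays 1, 2 and 3). The replicate block gave 217 calls over all genes and left the same 5 of the 10 genes called, while Aqp8 and Nr4a2 were not called (adjusted p = 0.077 and 0.092) and Ero1a was (adjusted p = 0.044). Deviations of same-numbered arrays correlated at -0.104, 0.151 and 0.153 for numbers 1, 2 and 3 across genes. Knockout arrays 2 and 3 were closest to the wild type array of their own number, and knockout array 1 to wild type array 2 (0.121). Deviations from a mean of 3 arrays depend on each other, so these correlations cannot tell whether same-numbered arrays share a batch or a pairing. Calls that rest on 1 array stand beside each gene in the report. With 3 arrays a group, a difference such as that of Cebpb (0.13 ± 0.057) was not called by limma, although its groups did not overlap. No detection values were used to say which dim probe sets measure a transcript.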
